A study of Mus musculus with 24 samples.

Results

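The oxidized casein restricted diet and the elemental restricted diet were compared in IWAT, the inguinal pad of subcutaneous white fat. The members were the 6 libraries of each of these diets, 12 of the 24 libraries of the series, chosen by their diet labels and read across every gene that could be tested, 15176 of the 16821 genes listed. All mice were male C57BL6/J, began their diet at 5 weeks of age, stayed on it for 12 weeks and were sampled at an age of 4 months after a fast of 4 h, and each library carries its own mouse number in the labels. Elemental MR (methionine restriction) mice ate free amino acids with 0.17% methionine, and oxidized casein MR mice ate casein whose methionine had been lost by oxidation and was then returned to the same 0.17%. Elemental controls and casein controls ate free amino acids and casein that was not oxidized, both at 0.86% methionine. The restricted diets differ in the form of the protein and in its oxidation at once, and these cannot be told apart between them. The labels state 8 mice per diet, and 6 libraries per diet were analysed here. The design text among the labels speaks of liver, but the title, source and extraction protocol all give IWAT.

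Dietary methionine restriction lowers the supply of the essential sulfur amino acid and is known in rodents for leanness, raised energy expenditure and beige, Ucp1-expressing adipocytes within subcutaneous fat. Free amino acids are absorbed without digestion and are the usual way to build such a diet, since intact proteins carry methionine in their sequence. Oxidizing a protein converts its methionine residues to forms that animals use poorly, so a protein-based diet can also be made low in usable methionine. The comparison asks how alike the fat pad transcriptome is when the same methionine level is reached by these routes.

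Fat was present in all libraries. Adipoq, the adipokine adiponectin, ran from 1949 to 3647 CPM (counts per 1000000 reads, with TMM-scaled totals) in elemental MR and from 2100 to 4835 CPM in oxidized casein MR, while Alb, the liver's serum albumin, ran from 107 to 865 CPM over both. Library totals were 8360132 to 17129341 reads in elemental MR and 7468336 to 16201962 in oxidized casein MR. The inguinal pad encloses a lymph node, and the mean of the 12 measured B cell markers split the 24 libraries into 15 with lymph node transcripts (4.66 to 6.35 log2 CPM) and 9 without (-0.59 to 2.47). Those transcripts were present in 5 of 6 elemental MR libraries, all but replicate 2, and in 2 of 6 oxidized casein MR libraries, replicates 3 and 5. The summed level of the B cell markers was 26.5 CPM at the lowest, 616 at the median and 894 at the highest in elemental MR, and 11.7, 65.0 and 849 CPM in oxidized casein MR, with Cd79a at 0 in at least 1 library of the latter. Elemental MR 2 also held skeletal muscle transcripts, with Acta1, muscle actin, at 1239 CPM against at most 166.3 in the oxidized casein MR libraries. In bulk tissue, fewer cells of a type and less RNA per cell cannot be told apart.

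No gene passed the test between the restricted diets. With edgeR's quasi-likelihood test and Benjamini-Hochberg adjustment over all genes, 0 of 15176 genes (0%) had an adjusted p under 0.05. At an unadjusted p under 0.05 there were 1060 genes (6.98%), of which 584 (3.85%) were higher and 476 (3.14%) lower in oxidized casein MR. limma voom also called 0 genes, whereas DESeq2 called 12, with 9 higher (Sema5a, Thbs2, Crispld2, Pcsk6, Angpt1, Ifi27l2a, Igfbp7, Gbp7 and Gstt1) and 3 lower (Chrna2, Rassf3 and Aig1). The libraries of the diets were fully separate, with no overlap of their ranges, for 64 genes (0.422%), 34 of them higher (0.224%) and 30 lower (0.198%) in oxidized casein MR.

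A p above the threshold does not show that the diets act alike, so the range of differences that each gene still allowed was read from its 95% interval. For 10440 genes (68.8%) the whole interval lay within 2-fold either way, and for 6597 (43.5%) within 1.5-fold. This depended on level: the share bounded within 2-fold was 26.0% among the 4142 genes with an average under 2 log2 CPM, 78.1% from 2 to 4, 89.5% from 4 to 6 and 89.1% at 6 and over. The standard error (SE) of the log2 fold change had a median of 0.46 in the lowest class and 0.15 in the class from 4 to 6. For low-count genes with an estimate near 0 the SE can be too small and the interval too narrow. For most genes above 2 log2 CPM, a 2-fold difference between the diets lay outside the interval, while for most genes below it such a difference lay within the interval. The estimate itself was beyond 2-fold for 443 genes (2.92%), and the median over all genes was -0.03 (log2, oxidized casein MR over elemental MR, as for all differences below unless said). Over all genes 6922 estimates (45.6%) were higher and 8254 (54.4%) lower.

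**Figure D1:**
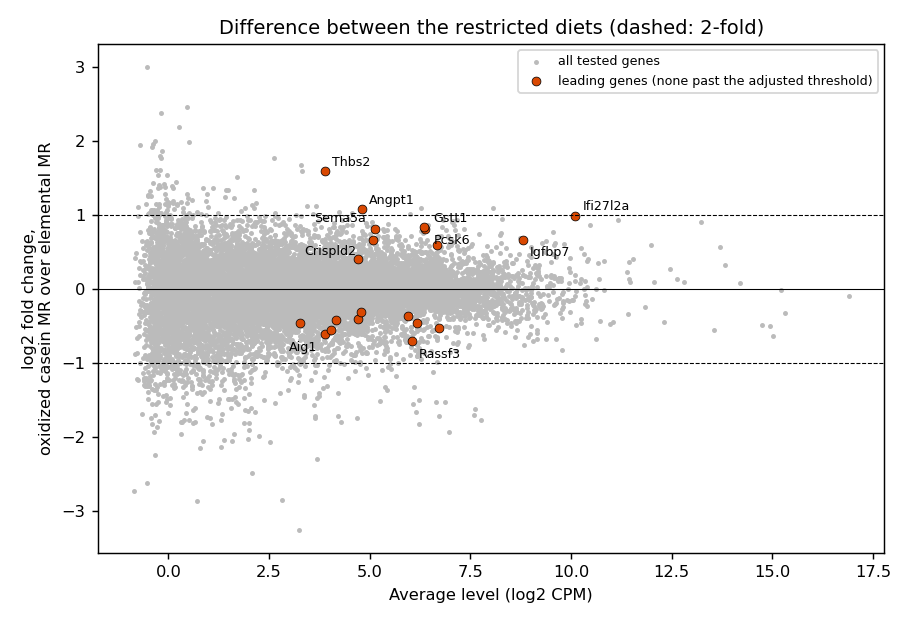
Log2 fold change of oxidized casein MR over elemental MR (vertical) against average level in log2 CPM (horizontal) for the 15176 tested genes, with the 20 leading genes in orange and 2-fold marked by dashed lines. The spread narrows as the level rises, and among the leading genes Thbs2 (1.58) and Angpt1 (1.07) have estimates beyond 2-fold, with Ifi27l2a at 0.99.

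As whole profiles, the libraries grouped by lymph node transcripts before diet. Over log2 CPM of all tested genes, the first principal component of the 12 libraries held 49.6% of the variance and placed the 7 libraries with lymph node transcripts on one side and the other 5 on the opposite side. The nearest library to each of the 12 was always one of the same lymph node set, and in 9 of 12 it was of the same diet. The mean Euclidean distance was 110.1 between libraries of different diets and 104.5 between libraries of the same diet, a ratio of 1.05 (1-sided exact permutation p = 0.177, n = 6 per diet). The control diets, measured in the same way, gave a ratio of 0.999 (1-sided exact permutation p = 0.403, n = 6 per diet). Pairs of elemental MR libraries had a median distance of 82.3, pairs of oxidized casein MR libraries 121.4, and pairs with 1 library of each diet 111.8. Without elemental MR 2 the ratio was 1.12 (1-sided exact permutation p = 0.0563, with 5 against 6 libraries). This was the smallest p of that test with any 1 of the 12 libraries left out, and the largest was 0.266. With the B cell marker mean fitted out of every gene, the ratio was 1.01 (1-sided exact permutation p = 0.203, n = 6 per diet).

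**Figure D2:**
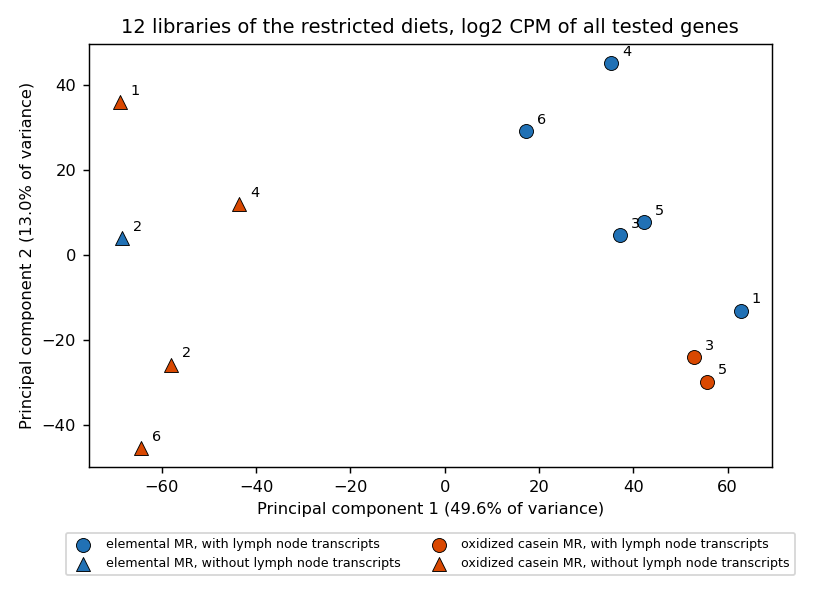
First and second principal components (49.6% and 13.0% of variance) of log2 CPM over all tested genes in the 12 restricted-diet libraries, numbered by replicate, with colour for diet and shape for lymph node transcripts. The 4 oxidized casein MR libraries without lymph node transcripts and elemental MR 2 lie at the left, and the other 7 libraries at the right.

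The genes that led the comparison are described as values, because none passed. By the naming rule they are the 10 higher and 10 lower genes of smallest unadjusted p with an average of at least 2 log2 CPM. Among the higher genes whose libraries were fully separate, Sema5a and Gbp7 had the smallest p, and the RefSeq sequence (GRCm38.p6) of the 250 bases before their start is shown for these 2 genes for that reason. Both are given 5′ to 3′ on the plus strand, Sema5a at chr15:32244563-32244812 and Gbp7 at chr3:142530086-142530335, and capitals mark a match to the core of the interferon-stimulated response element.
Sema5a: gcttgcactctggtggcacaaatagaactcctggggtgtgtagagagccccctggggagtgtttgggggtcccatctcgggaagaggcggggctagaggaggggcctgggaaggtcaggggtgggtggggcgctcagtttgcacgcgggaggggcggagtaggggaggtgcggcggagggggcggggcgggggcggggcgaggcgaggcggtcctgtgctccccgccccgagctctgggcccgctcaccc
Gbp7: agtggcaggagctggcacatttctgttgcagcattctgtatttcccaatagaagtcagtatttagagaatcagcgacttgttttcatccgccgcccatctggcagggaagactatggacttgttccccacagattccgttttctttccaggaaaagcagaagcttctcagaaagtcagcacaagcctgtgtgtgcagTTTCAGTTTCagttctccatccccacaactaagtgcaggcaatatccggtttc

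Motifs were searched on both strands. The interferon element core, GAAA repeated after 2 free bases (TTTC repeated in the same way on the opposite strand), occurred 1 time in the Gbp7 window and 0 times in that of Sema5a, and 2.98% of all 32851 RefSeq promoter windows of that length hold it. The amino acid response element core, TGATGNAA (TTNCATCA on the opposite strand), occurred in neither window and in 3.45% of all windows. With a match in the Gbp7 window only, and to 1 motif only, no overlap of the searched motifs could arise. RefSeq promoter entries were found for 15 of the 20 leading genes, and Ifi27l2a was among those without one.

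Sema5a, which encodes the transmembrane semaphorin 5A known from axon guidance, lies at chr15:32244810-32696341 (GRCm38, plus strand). Its level was 18.5 CPM at the lowest, 22.6 at the median and 25.7 at the highest in elemental MR, and 30.2, 38.1 and 49.0 CPM in oxidized casein MR. Every oxidized casein library was above every elemental one. The log2 fold change was 0.80 (SE 0.15, 95% interval 0.50 to 1.10, edgeR adjusted p = 0.176). In edgeR, leaving out oxidized casein MR 3 brought Sema5a past the threshold as the only gene (log2 fold change 0.90, adjusted p = 0.0387). Among libraries with lymph node transcripts Sema5a reached 25.7 CPM at most in 5 elemental MR and 30.2 CPM at least in 2 oxidized casein MR libraries, and the fit on those libraries alone gave 0.51.

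Gbp7, an interferon-inducible guanylate-binding GTPase (chr3:142530342-142550149, plus strand), was at 70.6, 87.6 and 96.3 CPM in elemental MR and at 116, 122 and 159 CPM in oxidized casein MR. The groups did not overlap, with a log2 fold change of 0.59 (SE 0.13, edgeR adjusted p = 0.399). Gbp2, another GTPase of the family, was likewise higher in all 6 oxidized casein libraries (25.6 to 32.9 CPM against 33.8 to 47.5, log2 fold change 0.48), and Gbp3 had overlapping groups (0.48). Reads of similar members of this family may be split among them by the counting, which the sources used here do not describe. The interferon response list as a whole had a median of 0.00 with 11 of 22 members on each side, 3 higher and 0 lower at an unadjusted p under 0.05. Over all genes 3.85% were higher and 3.14% lower at that p.

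Ifi27l2a, which encodes a small interferon-inducible membrane protein (chr12:103442167-103443680, minus strand), was the most abundant of the leading genes. It stood at 496, 631 and 959 CPM in elemental MR and at 746, 1394 and 1952 CPM in oxidized casein MR. The groups overlapped through oxidized casein MR 3 and 5, the libraries with lymph node transcripts. The log2 fold change was 0.99 (SE 0.24, edgeR adjusted p = 0.459) over all libraries, 0.61 once lymph node presence was a term, and 0.35 among the libraries with lymph node transcripts.

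Thbs2, the matrix glycoprotein thrombospondin 2 (chr17:14665500-14694235), was at 3.44, 8.41 and 11.5 CPM in elemental MR and at 11.5, 22.6 and 42.2 CPM in oxidized casein MR, where only the lowest library touched the elemental range. Its log2 fold change of 1.58 (SE 0.35, edgeR adjusted p = 0.399) was the largest among the leading genes, and became 1.001 with lymph node presence as a term. Within the oxidized casein MR diet, the 2 libraries with lymph node transcripts held 11.5 and 14.5 CPM of Thbs2 and the 4 without held 18.4 to 42.2.

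Angpt1, angiopoietin 1, the ligand of the endothelial receptor Tie2, was at 11.4, 15.2 and 20.1 CPM in elemental MR and at 19.4, 38.0 and 44.3 CPM in oxidized casein MR (log2 fold change 1.07, SE 0.25, edgeR adjusted p = 0.399). Igfbp7, a secreted protein of the vessel wall related to the insulin-like growth factor binding proteins, was at 270, 354 and 452 CPM against 455, 526 and 741 CPM, with no overlap (0.66, SE 0.16, edgeR adjusted p = 0.517). The last 1000 bases of Igfbp7 hold an exon of Polr2b on the opposite strand, and since the strand setting of the counting is not given in the sources used here, reads of the 2 genes cannot be told apart. Among the rest were Pcsk6, a secreted proprotein convertase (0.80), Gstt1, a glutathione transferase (0.83), Crispld2, a secreted cysteine-rich protein (0.65), and Fbxo7, a subunit of a ubiquitin ligase (0.40). With only the libraries that held lymph node transcripts, the estimates were 0.34 for Angpt1, 0.30 for Pcsk6 and 0.32 for Gstt1.

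Of the genes lower on oxidized casein, Rassf3, a Ras association domain protein (chr10:121410350-121476347), had the smallest p. It was at 78.4, 99.9 and 122 CPM in elemental MR and at 43.1, 64.1 and 76.2 CPM in oxidized casein MR. The groups did not overlap (log2 fold change -0.71, SE 0.15, edgeR adjusted p = 0.374). Aig1, a hydrolase of fatty acid esters of hydroxy fatty acids, was also separate, at 15.4, 18.8 and 25.3 CPM against 10.5, 12.0 and 15.2 CPM (-0.62, SE 0.13, edgeR adjusted p = 0.374).

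Pgap2, which remodels glycosylphosphatidylinositol anchors (-0.41), and Bmi1, a Polycomb protein (-0.31), were the remaining leading genes with no overlap. The 6 whose groups overlapped were Nup93, a scaffold protein of the nuclear pore (-0.57), Egln1, the oxygen-sensing prolyl hydroxylase (-0.54), Ppp1cb, a catalytic subunit of protein phosphatase 1 (-0.46), Sco1, a copper chaperone of cytochrome c oxidase (-0.46), Lamtor3, a lysosomal anchor of mTORC1 (-0.42), and Pak1ip1, a ribosome biogenesis factor (-0.37). All 20 leading genes kept their sign in each of 36 fits, which include both lymph node terms and every library left out in turn. The genes were chosen by their small p in the main fit, which is among the 36, and the fits share libraries. Their unchanged sign is therefore not independent support. Chrna2, a nicotinic acetylcholine receptor subunit, stood just under the level limit of the naming rule at 1.88 log2 CPM and is named after its values were seen: its log2 fold change was -1.23 (SE 0.24, edgeR adjusted p = 0.207).

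**Figure D3:**
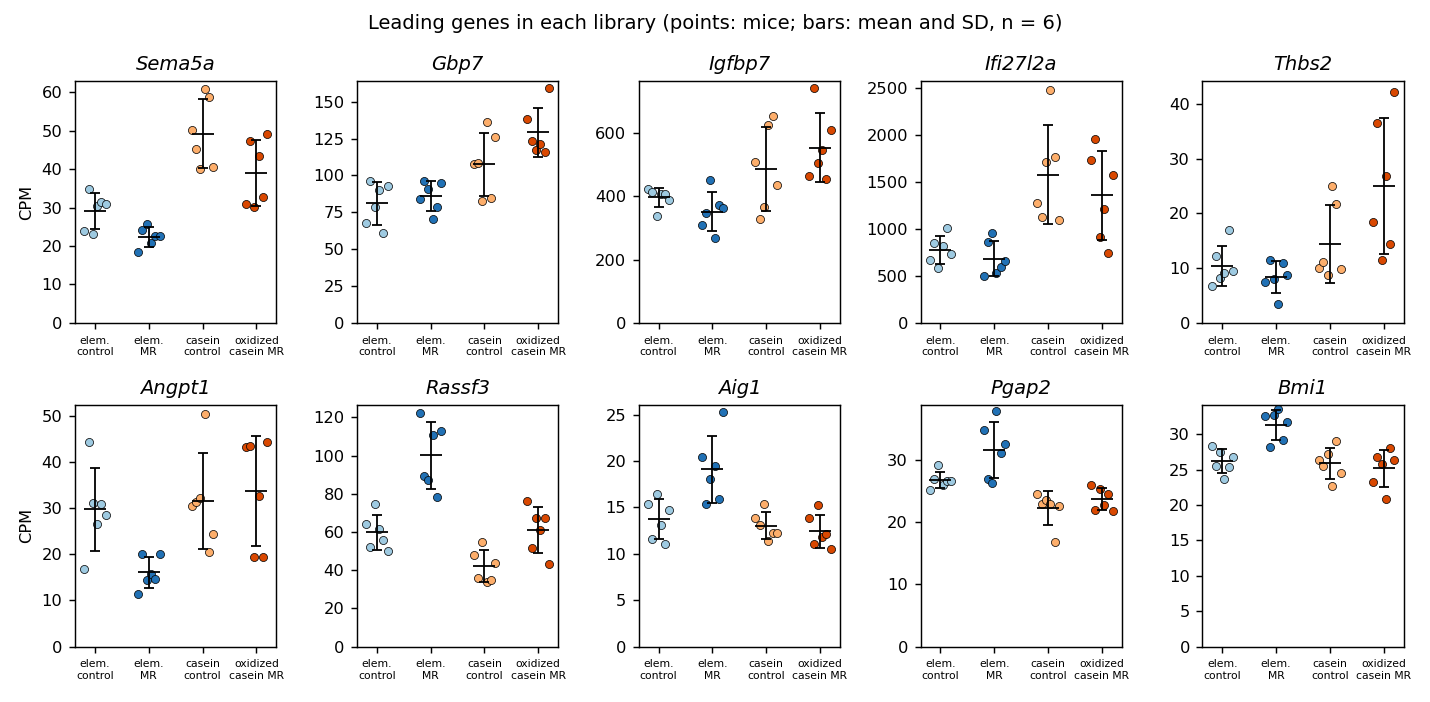
CPM of 10 leading genes (vertical axes from 0) in each of the 24 libraries by diet, with bars for mean and SD of 6 mice. Sema5a is higher in both casein diets than in their elemental counterparts, while Bmi1 has separate ranges between the restricted diets and overlapping ranges between the controls.

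The control diets offered the same change of protein source, without oxidation, in 12 other libraries, which enter the same edgeR fit and so share its estimate of the spread. Between the controls 141 genes (0.929%) had fully separate libraries. Casein control against elemental control gave 100 genes past the edgeR threshold (0.659%), 2 higher (0.0132%) and 98 lower (0.646%). The 2 higher genes were Sema5a and Ifi27l2a, both among the leading higher genes of the restricted diets. Neither passed when edgeR was fitted to the 12 control libraries alone, which called 0 higher and 2 lower genes. Likewise 0 genes were called higher without elemental control 3, or on the libraries without lymph node transcripts, only 2 per control diet. Sema5a was at 23.2, 30.7 and 34.7 CPM in elemental controls and at 39.9, 47.7 and 60.8 CPM in casein controls (log2 fold change 0.76, SE 0.14, edgeR adjusted p = 0.0140). Ifi27l2a was at 581, 776 and 1013 CPM against 1095, 1495 and 2474 CPM (1.02, SE 0.24, edgeR adjusted p = 0.0484). For both genes the casein libraries were above all elemental ones at the control methionine level, and for Sema5a also at the restricted level. The difference between the protein source effects at the restricted and the control level was 0.04 (SE 0.20) for Sema5a and -0.03 (SE 0.34) for Ifi27l2a, with unadjusted p of 0.833 and 0.928 in edgeR.

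The 98 genes lower in casein controls include enzymes that make fatty acids from citrate and pyruvate. Between the restricted diets 94 of them had a lower and 4 a higher estimate, 42 were lower and 0 higher at an unadjusted p under 0.05, and 0 passed the threshold; over all genes 3.14% were lower at that p. Their median log2 fold change was -0.39 between the restricted diets and -1.03 between the controls that chose them. Acly, ATP citrate lyase, had -0.68 (SE 0.31) between the restricted diets and -2.04 between the controls. Fasn, fatty acid synthase, was at 5351, 6526 and 9488 CPM in elemental MR and 3774, 5024 and 6782 CPM in oxidized casein MR, overlapping groups with -0.45 (SE 0.25) against -1.46 in the controls.

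Insig1, the sterol-sensing partner of SCAP, had 0.05 (SE 0.22) between the restricted diets and -1.48 between the controls. Scd1, stearoyl-CoA desaturase, had 0.32 (SE 0.20) against -0.83, an estimate of the opposite sign. Its level also differed by lymph node set. With lymph node transcripts it was 11990 to 14720 CPM in 5 elemental MR and 13360 to 14460 CPM in 2 oxidized casein MR libraries. Without them it was 18260 CPM in 1 elemental MR and 17760 to 22140 CPM in 4 oxidized casein MR libraries. The cause of the opposite sign was not tested. The interaction test of the restricted against the control difference passed for 0 of 15176 genes in edgeR (0%) and in limma voom, against 2 in DESeq2, with 506 genes (3.33%) at an unadjusted p under 0.05 in edgeR. Of the 98 genes 61 were at that p, in a contrast that contains the control difference by which they were chosen. Across all 15176 genes the restricted and control differences were related with Pearson's r at 0.30 and Spearman's rho at 0.17, over genes that are not independent and share libraries within each contrast.

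The control count depends on single libraries. It was 30, 202, 24, 194 and 53 without elemental controls 1, 2, 3, 4 and 6, 66 without each of elemental MR 1 and 2, and 35, 55, 177 and 33 without casein controls 1, 4, 5 and 6. The count of higher genes ran from 0, without elemental control 3, to 14, without casein control 5.

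**Figure D4:**
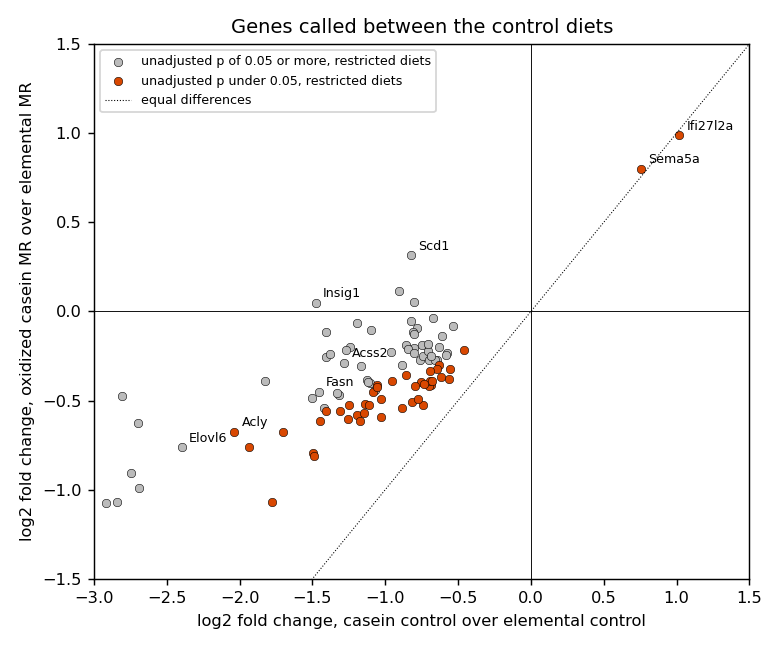
Log2 fold change between the restricted diets (vertical) against that between the control diets (horizontal) for the 100 genes past the edgeR threshold between the controls, with orange for an unadjusted p under 0.05 between the restricted diets. Most points lie below 0 and above the dotted line of equal differences (median -0.39 against -1.03), and Sema5a and Ifi27l2a lie near that line.

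Gene lists of mitochondrial and fuel metabolism had mostly lower estimates in oxidized casein MR, with 0 members past the edgeR threshold in any list. All 19 tested TCA cycle genes had a lower estimate (median -0.39), 8 at an unadjusted p under 0.05, among them Mdh2, malate dehydrogenase (-0.36, SE 0.14), and Dlat, a subunit of pyruvate dehydrogenase (-0.52, SE 0.21). All 8 measured mitochondrially encoded transcripts had lower estimates (median -0.48, 4 at that p). Of 42 nuclear subunits of oxidative phosphorylation 41 were lower (median -0.28, 6 at that p), and of 22 fatty acid oxidation genes 20 (median -0.32, 5 at that p). The most abundant members of the last 3 of these lists had smaller differences than their list's median, with mt-Nd4, a complex I subunit, at 124832, 152767 and 178065 CPM in elemental MR and 115381, 133441 and 185236 CPM in oxidized casein MR (-0.10, SE 0.19), Cox6c, a subunit of cytochrome c oxidase, at -0.15 (SE 0.17), and Hadh, of beta-oxidation, at -0.21 (SE 0.15). Members of a list share libraries and vary together, so these counts describe the lists and are not tests. Over all genes 54.4% of estimates were lower. Of all genes, 3.85% were higher and 3.14% lower at an unadjusted p under 0.05, the shares to set beside the counts of every list.

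Mitochondrially encoded transcripts took 32.9% ± 2.73 of the reads in elemental MR and 27.9% ± 4.36 in oxidized casein MR (SD, n = 6 each; 2-sided exact permutation p = 0.0455, adjusted over 7 tests 0.10). Thermogenic adipocyte genes had a median of -0.67, with 19 of 22 estimates lower, 4 lower and 1 higher at an unadjusted p under 0.05. The higher one was Ebf2, a factor of beige precursors (0.48). Slc25a20, the mitochondrial carnitine carrier, was at 155, 190 and 256 CPM in elemental MR and at 92.0, 128 and 165 CPM in oxidized casein MR (-0.66, SE 0.22). Clstn3, whose adipose form sits on lipid droplets, was at 45.0, 58.8 and 79.7 CPM against 22.6, 39.0 and 46.9 CPM (-0.70, SE 0.25). In both genes the ranges overlapped.

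Ucp1, the uncoupling protein of thermogenic fat (chr8:83290352-83298452), was at 1255, 1748 and 2619 CPM in elemental MR and at 99.4, 1127 and 1791 CPM in oxidized casein MR. The lowest value belonged to oxidized casein MR 6 and lay far below the next, 649 CPM. The edgeR log2 fold change was -0.83 (SE 0.83, 95% interval -2.55 to 0.89), and the 2-sided exact permutation test gave p = 0.039, 0.10 after adjustment over 7 tests (n = 6 per diet). With lymph node presence as a term the estimate was 0.10, of the opposite sign. The median of the thermogenic list was then -0.26, and those of the TCA cycle and mitochondrially encoded lists were -0.29 and -0.39. The mean log2 CPM of the thermogenic list was 6.36 to 7.06 in elemental MR and 6.26 to 6.30 in oxidized casein MR among libraries with lymph node transcripts, and 6.50 and 5.05 to 6.74 among those without. That of the TCA cycle list was 7.92 to 8.48 and 7.76 to 7.81 with the transcripts, and 8.00 and 7.40 to 8.24 without. In both lists the 2 oxidized casein libraries with lymph node transcripts lay below all 5 such elemental libraries, and the single elemental library without them lay inside the range of the other 4.

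The lists of fat storage genes differed in their medians. Fatty acid synthesis had a median of -0.31, with 6 members lower and 1 higher at an unadjusted p under 0.05. Slc25a1, the mitochondrial citrate carrier, had -0.56 (SE 0.21), and Fads1, the delta-5 desaturase, 0.65 (SE 0.22). Glyceride synthesis (-0.04), lipolysis and fatty acid uptake (0.09) and insulin and glucose handling (-0.09) stood near the median of all genes. In the fit that includes lymph node presence, their medians were -0.33, -0.19 and -0.11, a change of sign for the lipolysis list. Within them Gpd1, glycerol-3-phosphate dehydrogenase, was at 1745, 2545 and 3884 CPM in elemental MR and at 937, 1601 and 2683 CPM in oxidized casein MR (-0.69, SE 0.29), Fabp5, a fatty acid binding protein, had -0.54 (SE 0.17), and Pygl, glycogen phosphorylase, -0.58 (SE 0.24). Their most abundant members were Pck1 of glyceroneogenesis (0.23, SE 0.19), Fabp4, the adipocyte fatty acid binding protein (0.07, SE 0.20), and Pfkfb3, a regulator of glycolysis (0.22, SE 0.25). In the lipolysis and uptake list Vldlr, the very low density lipoprotein receptor, was at 84.5, 100.4 and 122 CPM in elemental MR and at 61.0, 73.6 and 90.1 CPM in oxidized casein MR (-0.46, SE 0.16), and it passed the edgeR threshold, as the only gene, when the B cell marker mean entered as a term (-0.66, SE 0.10, adjusted p = 0.0133). Cholesterol synthesis had a median of -0.16 with 0 of 19 members at an unadjusted p under 0.05 in either direction.

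The white adipocyte identity list had a median of 0.35, led by Cfd, the serine protease adipsin, at 5685, 8700 and 11137 CPM in elemental MR and 9765, 15176 and 23427 CPM in oxidized casein MR (0.90, SE 0.26). Lep, the hormone leptin, was at 36.2, 82.1 and 235 CPM against 75.9, 193 and 295 CPM (0.93, SE 0.65; 2-sided exact permutation p = 0.0714, adjusted 0.10, n = 6 per diet). Its values followed the lymph node set within each diet. In elemental MR the library without lymph node transcripts held 235 CPM and the other 5 at most 100.7, and in oxidized casein MR the 4 without held at least 189 and the 2 with at most 105 CPM. With lymph node presence as a term the list median was -0.05.

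**Figure D5:**
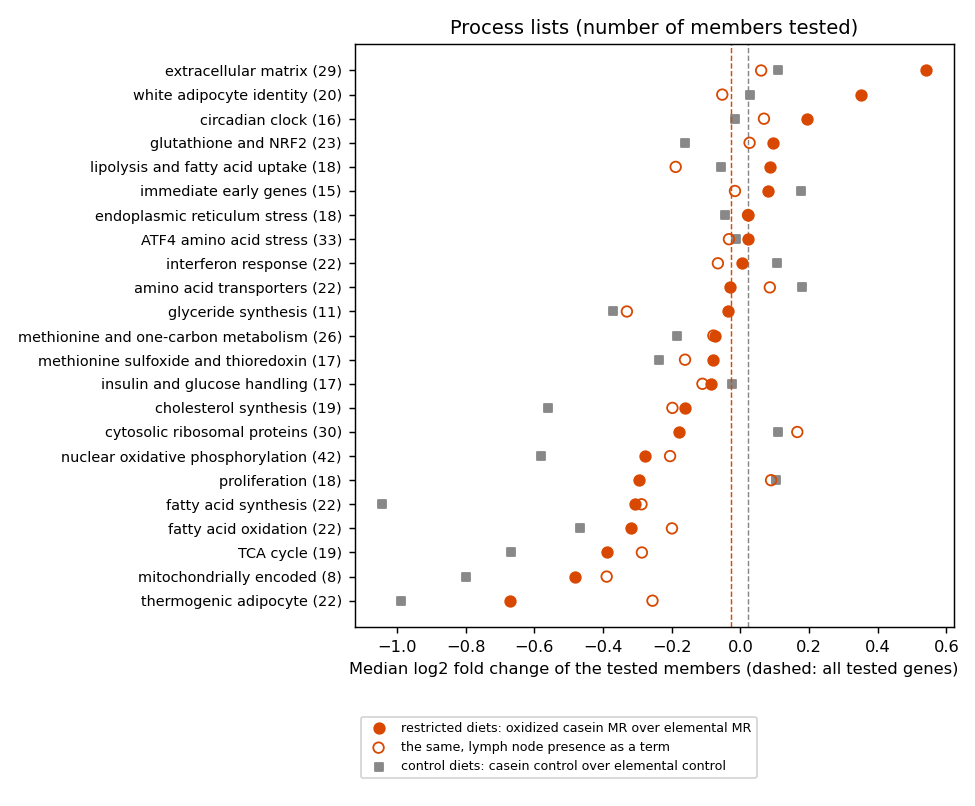
Median log2 fold change of the tested members of 23 process lists (horizontal) between the restricted diets (filled circles), the same with lymph node presence as a term (open circles), and between the control diets (squares), with dashed lines for all tested genes. The thermogenic, mitochondrial and TCA cycle lists lie left of the dashed lines in all 3, while the extracellular matrix median is 0.54 without and 0.06 with the lymph node term.

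Connective tissue genes had higher estimates in oxidized casein MR, and their levels also differed by lymph node set. All 29 extracellular matrix genes had a higher estimate (median 0.54), against 45.6% of all genes. At an unadjusted p under 0.05, 10 of the 29 were higher, beside 3.85% of all genes. Bgn, the proteoglycan biglycan, had mean levels of 88.8 CPM in elemental MR and 132 CPM in oxidized casein MR with no overlap, and Mmp14, a membrane-bound collagenase, was at 50.3 to 87.4 CPM against 68.5 to 105.6. The mean log2 CPM of the list was 5.61 to 6.21 in the 5 elemental MR libraries with lymph node transcripts and 5.99 to 6.06 in the 2 such oxidized casein MR libraries, ranges that overlap. It was 6.33 in elemental MR 2 and 6.42 to 6.93 in the 4 oxidized casein MR libraries without those transcripts. With lymph node presence as a term the list median was 0.06.

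Adipose progenitor markers had a median of 0.51, with 13 of 16 estimates higher and 3 lower, the lowest at -0.52. At an unadjusted p under 0.05, 7 were higher and 0 lower, beside 3.85% and 3.14% of all genes. Gsn, the actin-severing protein gelsolin, was at 1016, 1509 and 1891 CPM in elemental MR and at 1696, 2844 and 3835 CPM in oxidized casein MR (0.93, SE 0.27). Cd34, a sialomucin of progenitor and endothelial surfaces, was at 20.2, 30.9 and 38.6 CPM against 42.0, 49.7 and 58.7 CPM, with no overlap (0.67, SE 0.26). The list median was 0.21 with lymph node presence as a term. Macrophage markers had a median of 0.33, with 20 of 25 estimates higher and 5 lower, the lowest at -1.01. At an unadjusted p under 0.05, 4 were higher and 0 lower. The 4 included Cd163, the hemoglobin scavenger receptor (1.03), and Gpnmb, a glycoprotein of lipid-laden macrophages (0.79). Their summed level ran from 5997 to 9759 CPM in elemental MR and from 6041 to 10134 CPM in oxidized casein MR. The macrophage median was 0.15 with lymph node presence as a term. Endothelial markers had a median of 0.22 and 0 members at that p, and the median was -0.13 with that term.

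Genes that sense or spare amino acids showed small median differences at the shared methionine level. The ATF4 amino acid stress list had a median of 0.02, with estimates from -1.17 to 0.69. Bounded within 2-fold were 22 of its 33 members, beside 68.8% of all genes. At an unadjusted p under 0.05, 2 members were higher and 1 lower, beside 3.85% and 3.14% of all genes. Asns, asparagine synthetase and a textbook ATF4 target, was at 25.8, 31.3 and 34.8 CPM in elemental MR and at 21.5, 34.1 and 46.4 CPM in oxidized casein MR (0.09, 95% interval -0.29 to 0.48; 2-sided exact permutation p = 0.779, n = 6 per diet). Psat1, which makes phosphoserine, had 0.29 with an interval of -0.36 to 0.94. The estimates for both were negative with lymph node presence as a term (-0.21 for each). Nupr1, a stress-induced chromatin protein, had 0.65 (SE 0.24).

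Methionine and one-carbon metabolism had a median of -0.07 over 26 genes, of which 14 were bounded within 2-fold, beside 68.8% of all genes. Mat2a, which makes S-adenosylmethionine, was at 175, 187 and 255 CPM in elemental MR and at 195, 235 and 384 CPM in oxidized casein MR (0.31, SE 0.14). Nnmt, which consumes that methyl donor, had 0.62 (SE 0.29). In the list as a whole 10 estimates were higher and 16 lower, down to -0.88. It held 2 members higher and 1 lower at an unadjusted p under 0.05, beside 3.85% and 3.14% of all genes. A further list joined the methionine sulfoxide reductases Msra, Msrb1, Msrb2 and Msrb3, which repair oxidized methionine, with thioredoxin and peroxiredoxin genes. It had a median of -0.08 with all 17 members bounded within 2-fold, beside 68.8% of all genes. There were 0 members higher and 1 lower at an unadjusted p under 0.05, Txnrd2, mitochondrial thioredoxin reductase (-0.37).

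Glutathione and NRF2 genes had a median of 0.09, with Gstt1 at 35.5, 57.4 and 74.8 CPM in elemental MR against 61.8, 105 and 139 CPM in oxidized casein MR, and Gpx3, the secreted glutathione peroxidase, at 403, 508 and 812 against 600, 877 and 1102 CPM (0.61, SE 0.25). Sod2, mitochondrial superoxide dismutase, had the opposite sign (-0.45). The endoplasmic reticulum stress list (median 0.02) was bounded within 2-fold for all 18 members, beside 68.8% of all genes. Amino acid transporters had a median of -0.03, with estimates from -1.17 to 0.86 and 12 of 22 members bounded within 2-fold, beside the same 68.8%. Among them Slc43a1, a carrier of large neutral amino acids, had 0.86 (SE 0.30) and Slc1a3, a glutamate carrier, 0.55 (SE 0.21).

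Genes that restriction changed on both protein sources give a further view, although they were chosen on libraries shared with this comparison and are described only. In edgeR, elemental MR against its control called 33 genes higher (0.217%) and 4 lower (0.0264%), 37 in all (0.244%). Oxidized casein MR against its control called 509 higher (3.35%) and 70 lower (0.461%), 579 in all (3.82%). In common were 30 genes called in the same direction by both contrasts, 29 higher and Igfbp4 lower. Between the restricted diets 0 of these 30 passed, 22 were at an unadjusted p under 0.05, and 29 had a lower estimate in oxidized casein MR (median -0.37, range -1.27 to 0.38). Over all genes tested 6.98% were at that p, and since the same libraries chose the 30 genes nothing is read from the count. Between the control diets 29 of the 30 also had a lower estimate on casein (median -0.36). For 21 of 30 the interval lay within 2-fold, beside 68.8% of all genes. Dhrs9, a retinol dehydrogenase, was at 6.70, 9.67 and 13.5 CPM in elemental MR and at 0.310, 5.24 and 6.75 CPM in oxidized casein MR, which touched only at the edge (-1.27, SE 0.49). Slc25a34, a mitochondrial carrier, was at 30.5, 45.6 and 58.2 CPM against 6.50, 23.7 and 32.1 CPM (-1.004, SE 0.34).

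The log2 change by restriction itself is given side by side for the leading genes of this set: 3.18 on elemental amino acids and 3.19 on casein for Dhrs9, 2.96 and 2.97 for Slc25a34, and 1.92 and 1.68 for Gk, glycerol kinase. The difference between the restricted diets for Dhrs9 and Slc25a34 stood beside one of -1.28 and -1.02 between their controls. Gk had -0.73 between the restricted diets and -0.48 between the controls, and Slc4a4, a sodium bicarbonate cotransporter, -0.72 and -0.34. The others of the 10 members with the largest mean change by restriction were Clstn3, a calsyntenin (-0.70 between the restricted diets), Slc25a20, the mitochondrial carnitine carrier (-0.66), Kcnk3, a potassium channel (-0.49), Slc25a42, a mitochondrial coenzyme A carrier (-0.55), Dlgap1, a scaffold protein (-0.38), and Igfbp4, a binding protein of insulin-like growth factors and the member with a higher estimate (0.38). Libraries of the restricted diets did not overlap for 3 of the 30 genes, beside 0.422% of all genes. These were Mlycd, malonyl-CoA decarboxylase (-0.52), Adam12, a membrane metalloprotease (-0.48), and Rassf3 (-0.71). Because the same libraries chose the 30 genes, nothing is read from this count either.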

How the data were processed

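Counts came from QuantSeq libraries, a kit that reads the 3′ end of polyadenylated transcripts in 50 bp reads, per the labels' protocols. The authors deposited raw counts for 16821 genes, each with at least 72 reads in total, and a normalized signal table, which equals the counts divided by 1 size factor per library and was used only for that check. Per the submitters' processing notes, R 3.4.3, DESeq2 1.18.1 and the builds GRCm38 and mm10 were used; the sources used here do not name the aligner, the counter or its strand setting. Symbols and positions are from GENCODE M21, promoters from RefSeq. Reads carry no molecular identifiers, so intervals rest on the spread between mice.

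In R 4.3.3, edgeR 4.0.16 (filterByExpr, which removed 1645 genes, TMM, robust glmQLFit and 2-sided glmQLFTest) was fitted to all 24 libraries with 1 mean per diet; the threshold was a Benjamini-Hochberg adjusted p of 0.05. The SE is the log2 fold change over the square root of F. CPM values use the TMM-scaled totals, and log2 CPM a prior count of 2. The anchor genes (Ucp1, Lep, Fasn, Scd1, Asns, Psat1) and the mitochondrial share of reads had exact permutation tests over 924 splits, the smallest 2-sided p being 0.00216. Alternatives were DESeq2 1.42.0, limma 3.58.1 voom, other scalings and filters, lymph node terms and subsets, and each library left out. Scripts were tested on simulated data.

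Named were, since under 10 genes passed, the 10 higher and 10 lower genes of smallest p with at least 2 log2 CPM and a symbol that is not clone-named, the anchor genes, the genes called by both restriction contrasts, and from each list the members of smallest p and highest level. Other list members were named after their values were seen. The comparison, its members and the 36 lists (23 process, 13 marker) were chosen with earlier results of these data known. Lists are described by counts and medians, with no test.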

Additional observations from a re-analysis of the deposited data

Results flagged for a closer look

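In 80 groups of 6 libraries checked, 6 had a lowest library whose gap to the next exceeded Dixon's 95% limit; chance flags about 1 in 20 groups. Elemental MR 2 stood apart in its lymph node markers, with a B cell marker mean of 0.80 log2 CPM (next 4.66) and a T cell marker mean of 0.097 (next 3.70). Elemental MR 1 had a hepatocyte marker mean of 3.15 log2 CPM (next 5.41) and a Gstt1 level of 5.16 log2 CPM (next 5.84). Elemental MR 4 had Thbs2 at 1.85 log2 CPM (next 2.95). Oxidized casein MR 6 had Ucp1 at 6.64 log2 CPM (next 9.34).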

How the results depend on the processing

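The count of 0 genes between the restricted diets held under both other scalings, with no filter, in limma voom and on the 12 restricted libraries alone. It also held with a term for lymph node presence, without both muscle-rich libraries, and on the libraries with lymph node transcripts alone. That last fit had 5 elemental MR and 2 oxidized casein MR libraries, so its count of 0 says little. The libraries without those transcripts held 1 elemental MR against 4 oxidized casein MR libraries, and no count is given for them. Each control diet had 4 libraries with the transcripts and 2 without. The count between the restricted diets was 12 in DESeq2, 1 with the B cell marker mean as a term, and 0 to 1 with each library left out, the 1 being without oxidized casein MR 3. The control count of 100 was 417 in DESeq2 (42 higher), 2 on the 12 control libraries alone, 313 with lymph node presence (44 higher) and 347 with the B cell marker mean as a term (49 higher), 177 on libraries with lymph node transcripts, 0 on those without (950 at an unadjusted p under 0.05), 170 without both muscle-rich libraries, and 24 to 202 with each library left out. The genes bounded within 2-fold numbered 9822 to 10587 with each library left out, and the distance ratio then ran from 1.02 to 1.12. With the B cell marker mean fitted out, the distance ratio was 1.01. Anchor estimates that changed sign were Ucp1 (0.10), Asns (-0.21) and Psat1 (-0.21) with lymph node presence, Ucp1 (0.093), Asns (-0.18) and Psat1 (-0.13) with the B cell marker mean, and Asns (-0.44) and Psat1 (-0.17) on libraries with lymph node transcripts. The causes were not tested. The medians of the thermogenic, TCA cycle, mitochondrially encoded, fatty acid oxidation, oxidative phosphorylation and extracellular matrix lists kept their sign in all 36 fits, including the one with the lymph node term, whereas those of ribosomal protein and proliferation genes (-0.18 and -0.30) became 0.17 and 0.09 under that term. The extracellular matrix median was 0.54 in the main fit and 0.06 with that term. The 36 fits share libraries and include the main fit and the fit of 1 elemental MR against 4 oxidized casein MR libraries. An unchanged sign is therefore not independent support. No paired analysis was possible because the labels number mice individually and share no replicate number across diets. Low counts limit genes under 2 log2 CPM most.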

Other observations

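Lists outside the metabolic themes showed the following between the restricted diets, with 0 members past the edgeR threshold. Of 16 circadian clock genes 2 were higher and 1 lower at an unadjusted p under 0.05 (median 0.19). Per1, a period gene of the clock, was at 7.38, 10.8 and 13.7 CPM in elemental MR and at 6.66, 15.5 and 32.4 CPM in oxidized casein MR (log2 fold change 0.71, SE 0.28), and Nr1d1, the clock repressor Rev-erb alpha, had 0.41 (SE 0.18). Times of day of tissue collection were not used here.

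Immediate early genes had a median of 0.08, with Fosl2, a member of the AP-1 family, at 0.46 (SE 0.20) and Junb, another, at -0.59 (SE 0.34). Mast cell and granulocyte markers had 6 of 9 tested members with higher estimates and 3 with lower ones, down to -0.65. At an unadjusted p under 0.05, 3 members were higher and 0 lower, beside 3.85% and 3.14% of all genes. Among the 3, Tpsb2, a mast cell tryptase, was at 12.5, 20.8 and 37.8 CPM in elemental MR and at 21.9, 35.4 and 43.4 CPM in oxidized casein MR (0.66, SE 0.22). Prtn3, proteinase 3, had 0.96 (SE 0.37) beside 1.36 between the control diets. The groups of each of these genes overlapped.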
